A study of Bos taurus with 11 samples.

Results

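Amino acid transporters were described as 53 of the 16279 genes in the deposited table of mammary messenger RNA. The selection was by symbol, as every line of the SLC1, SLC3, SLC6, SLC7, SLC15, SLC36, SLC38 and SLC43 families of solute carriers together with SLC16A10. No measured value entered that rule, although earlier results of these data were known when the members were chosen. SLC7A11, SLC15A2 and SLC36A2 were not analysed here. The SLC6 family also carries amines, GABA, taurine and creatine, and SLC15 carries peptides, so not every member moves a proteinogenic amino acid. Tissue came from Holstein heifers of 10 to 12 months, and the labels name no agent or transgene in any group. The parenchyma, where the epithelial ducts lie, and the far stroma were sampled in heifers 1, 3, 4 and 5 (n = 4 each), and the close stroma in heifers 3, 4 and 5 (n = 3). The labels give no distances between the regions. The series compares stromal with parenchymal regions, and the question here is how the transporter genes are spread over them.

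Amino acids cross cell membranes by secondary transport. Some carriers use the sodium or proton gradient to concentrate their substrates, others exchange one amino acid for another, and uniporters let them run down their gradient. The light chains of the SLC7 family reach the cell surface when paired with a heavy chain of the SLC3 family. In the mammary gland these carriers supply the epithelium with building blocks for milk protein, and leucine and arginine also act as signals to the kinase complex mTORC1. 

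The samples held 7274474 to 11156909 recovered reads, of which 8147 to 19479 fell on the 53 genes. Summed over the members, normalised counts ran from 13631 to 17833 in parenchyma, from 12815 to 14793 in close stroma and from 11525 to 14043 in far stroma. Normalised counts are whole read counts divided by 1 size factor per sample, are not corrected for gene length, and are therefore compared between regions and not between genes. All 7 luminal and all 5 basal epithelial markers and all 6 adipocyte markers were in the table. Summed luminal markers ran from 27237 to 34678 in parenchyma, from 13981 to 28751 in close stroma and from 223 to 397 in far stroma. Summed adipocyte markers ran from 722 to 1030.1, from 43871 to 155166 and from 176758 to 261489 in the same order. Among the markers, TP63 was at 0 in every far stroma sample. The close stroma held both kinds of marker, and its sample of heifer 3 was nearest to far stroma (luminal 13981, adipocyte 155166, against 28751 and 20354, and 43871 and 75304, in heifers 4 and 5). The 5 T cell markers summed to 3549 to 4839 in parenchyma and 185 to 550.0 in far stroma, and the 6 blood endothelial markers to 6546 to 8403 and 21317 to 31203. In such bulk tissue, fewer cells of a type and less RNA per cell cannot be told apart, and the part of cell composition in the differences below was not tested.

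Between parenchyma and far stroma, 28 of the 47 transporter genes that could be tested differed. Of these, 15 were higher in parenchyma, led by the glutamate carrier SLC1A1, the broad carrier SLC6A14 and the leucine carrier SLC7A5. The 13 lower ones included the serotonin carrier SLC6A4, the glutamate carrier SLC1A3 and the glutamine carrier SLC1A5. A gene was called at an adjusted p under 0.05 in limma, a linear model of log2(normalised count + 1) fitted to all genes. The share of members called was 59.6%, beside 50.1% of all 14596 genes tested. By direction, 26.1% of all genes were called higher and 24% lower. At least 2-fold differences were called for 21 members, 13 higher and 8 lower, beside 32.2% of all genes. The median log2 difference was -0.01 over the members and 0.06 over all genes, and the median size of the difference without its sign was 1.06 and 0.65. The counts depended on the scaling of the libraries. With each library scaled to its total, the median of all genes moved up by 0.42 on the log2 scale and the members split into 20 higher and 8 lower, beside 43.3% and 14.4% of all genes. SLC38A10, SLC38A6, SLC38A5, SLC43A2 and SLC6A9 were not called lower under that scaling, and SLC15A4, SLC6A6, SLC6A11, SLC7A2 and SLC7A8 were called higher. With the size factors kept, the counts were 17 and 13 with the heifer as a block (28.1% and 25.3% of all genes), 16 and 13 in edgeR (25.6% and 24.5%) and 17 and 13 in DESeq2 (26.9% and 25.9%).

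**Figure D1:**
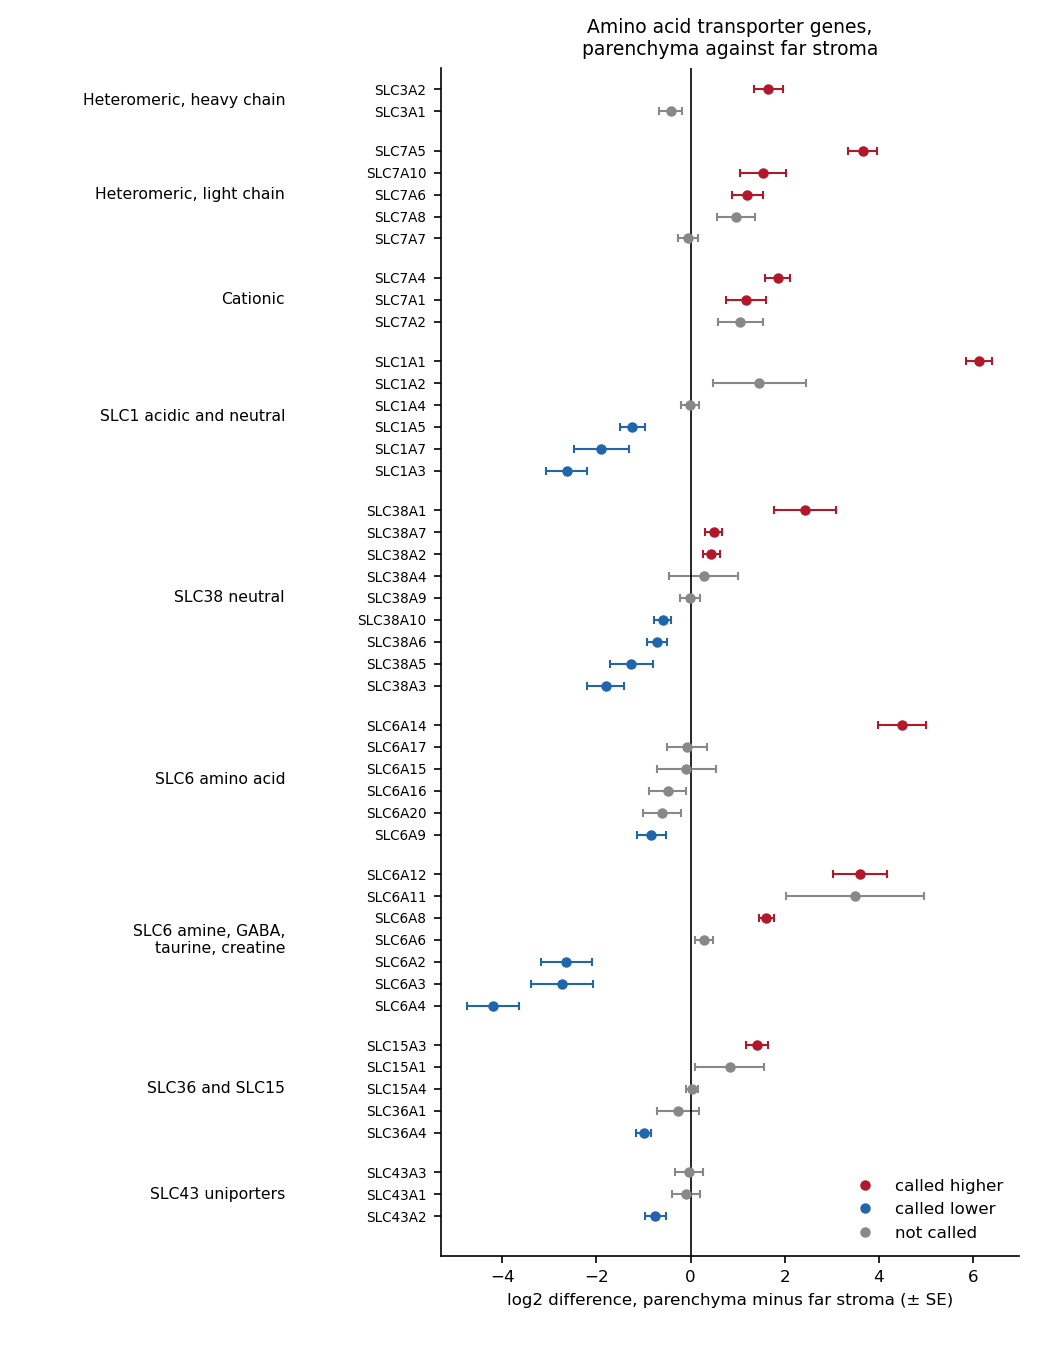
Log2 difference of parenchyma minus far stroma, with its SE, for 46 of the 47 amino acid transporter genes tested, grouped by role and coloured by the limma call at an adjusted p under 0.05. SLC1A1 lies farthest to the right at 6.13 and SLC6A4 farthest to the left at -4.19, and 14 of the genes shown are called higher and 13 lower.

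Values are normalised counts listed in the order of heifers 1, 3, 4 and 5 (3, 4 and 5 in close stroma), and log2 differences carry their SE. The heteromeric carriers join a heavy chain to a light chain, and both sides of the pair best known for leucine uptake were higher in parenchyma. SLC7A5 (LAT1, ENSBTAG00000006731), which exchanges large neutral amino acids such as leucine for glutamine, stood at 556, 476, 521 and 614 in parenchyma. Its counts were 156, 394 and 368 in close stroma and 37.2, 28.8, 65.5 and 43.5 in far stroma. Parenchyma and far stroma did not overlap, and the log2 difference was 3.66 ± 0.31, adjusted p = 1.24e-06, higher in 4 of 4 heifers. SLC3A2 (4F2hc, ENSBTAG00000013240), the heavy chain that brings SLC7A5 to the surface, had 1858, 2659, 3002 and 3448 in parenchyma. In close stroma it had 1289, 3059 and 1695 and in far stroma 626, 655, 1416 and 900.0. Here too the parenchyma lay above all far stroma samples (1.65 ± 0.31, adjusted p = 8.06e-04), although the close stroma of heifer 4 reached the level of parenchyma.

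Of the other 5 genes of heteromeric carriers, 2 were called higher and 3 did not pass. SLC7A6 (y+LAT2), which exchanges cationic for neutral amino acids, was at 84.5, 147, 82 and 77.8 in parenchyma, 44.1, 45 and 76.1 in close stroma and 46, 62.4, 24.8 and 37.1 in far stroma. It was higher in parenchyma (1.21 ± 0.33, adjusted p = 0.00833), with no overlap with far stroma. SLC7A8 (LAT2), a second exchanger of neutral amino acids, had 870.1, 775, 1120.5 and 2249 in parenchyma, 806, 1002 and 748 in close stroma and 309, 418, 1261 and 716 in far stroma. The far stroma of heifer 4 lay above 3 of the 4 parenchyma samples, and the difference did not pass (0.96 ± 0.41, adjusted p = 0.0661). With the heifer as a block it passed at 0.022, and it passed without the far stroma of heifer 4 (adjusted p = 0.0096). In edgeR (adjusted p = 0.0986) and DESeq2 (adjusted p = 0.0646) SLC7A8 did not pass. SLC7A10 (Asc-1), a carrier of small neutral amino acids, is known in mouse and human as a surface protein of white adipocytes. In these heifers it was low everywhere, at 29.4, 8.94, 7.13 and 25.6 in parenchyma, 4.79, 3.75 and 3.62 in close stroma and 6.85, 3.6, 3.39 and 4.84 in far stroma. It was called higher in parenchyma with no overlap with far stroma (1.54 ± 0.49, adjusted p = 0.0207), a call lost without the parenchyma of heifer 1 or 5 (adjusted p = 0.0686 and 0.0642). SLC7A7 (y+LAT1) ran from 173 to 295 over all samples and did not pass (-0.06, adjusted p = 0.836). The heavy chain SLC3A1 (rBAT), which serves the kidney and gut, was at 39.2, 35.8, 26.7 and 34.8 in parenchyma, 40.3, 33.8 and 39.9 in close stroma and 57.8, 50.4, 38.4 and 38.7 in far stroma, and did not pass either (-0.42, adjusted p = 0.174).

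Cationic amino acid carriers import arginine and lysine, and 2 of their 3 tested genes were higher in parenchyma. SLC7A1 (CAT1) was at 129, 277, 153 and 173 in parenchyma, 102, 201 and 112 in close stroma and 136, 125, 60.9 and 33.9 in far stroma. The groups overlapped, and heifer 1 had nearly the same count in both regions (1.18 ± 0.42, adjusted p = 0.0329, higher in 3 of 4 heifers). The call was lost without the parenchyma of heifer 3, 4 or 5 (adjusted p = 0.101, 0.0506 and 0.0614) or the far stroma of heifer 4 or 5 (adjusted p = 0.0759 and 0.0913). SLC7A4, a relative by sequence, had 272, 189, 119 and 216 in parenchyma against 55.8, 66, 39.5 and 50 in far stroma (1.86 ± 0.26, adjusted p = 9.45e-05), and 106, 109.7 and 139 in close stroma. Parenchyma and far stroma did not overlap. SLC7A2 (CAT2) averaged 49.97 ± 14.4 in parenchyma and 28.8 ± 22.3 in far stroma (mean ± SD over 4 samples) and did not pass (1.06, adjusted p = 0.0788). It passed at 0.0201 with the heifer as a block and without the far stroma of heifer 1 (adjusted p = 0.00983). In edgeR (0.77, adjusted p = 0.186) and DESeq2 (0.78, adjusted p = 0.171) SLC7A2 did not pass.

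The SLC1 family holds sodium-coupled carriers of glutamate and aspartate and exchangers of neutral amino acids, and its members moved in opposite directions. SLC1A1 (EAAT3, ENSBTAG00000019125), a glutamate, aspartate and cysteine carrier of epithelia and neurons, was at 617, 761, 1063 and 749.8 in parenchyma and 312, 754 and 564 in close stroma. In far stroma it was at 9.79, 13.2, 10.2 and 8.06. No far stroma sample came near the other regions, and the log2 difference of 6.13 ± 0.27, adjusted p = 6.92e-09 was the largest rise in limma among the members tested, or 70.2-fold on this scale. SLC1A3 (EAAT1, ENSBTAG00000018245), a glutamate and aspartate carrier best known from astrocytes, ran the other way with 90.5, 92.7, 141 and 90.6 in parenchyma. It had 687, 134 and 264 in close stroma and 722, 1037, 345 and 631 in far stroma, and its 2 outer regions did not overlap (-2.63 ± 0.44, adjusted p = 3.06e-04). SLC1A5 (ASCT2, ENSBTAG00000013577), which exchanges glutamine and other small neutral amino acids, had 584, 411, 529 and 700.4 in parenchyma. It had 1239.7, 519 and 819.6 in close stroma and 882, 1273, 1496 and 1631 in far stroma. All 4 parenchyma samples lay below all 4 far stroma samples (-1.24 ± 0.27, adjusted p = 0.00233). SLC1A7, a carrier known from the retina, was low at 0.75, 1.63, 1.78 and 3.66 in parenchyma and 7.83, 13.2, 14.7 and 4.84 in far stroma, and was called lower (-1.90, adjusted p = 0.0169). SLC1A4 (ASCT1), which carries serine and alanine, ran from 162 to 288 over all samples and did not pass (-0.02, adjusted p = 0.945).

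**Figure D2:**
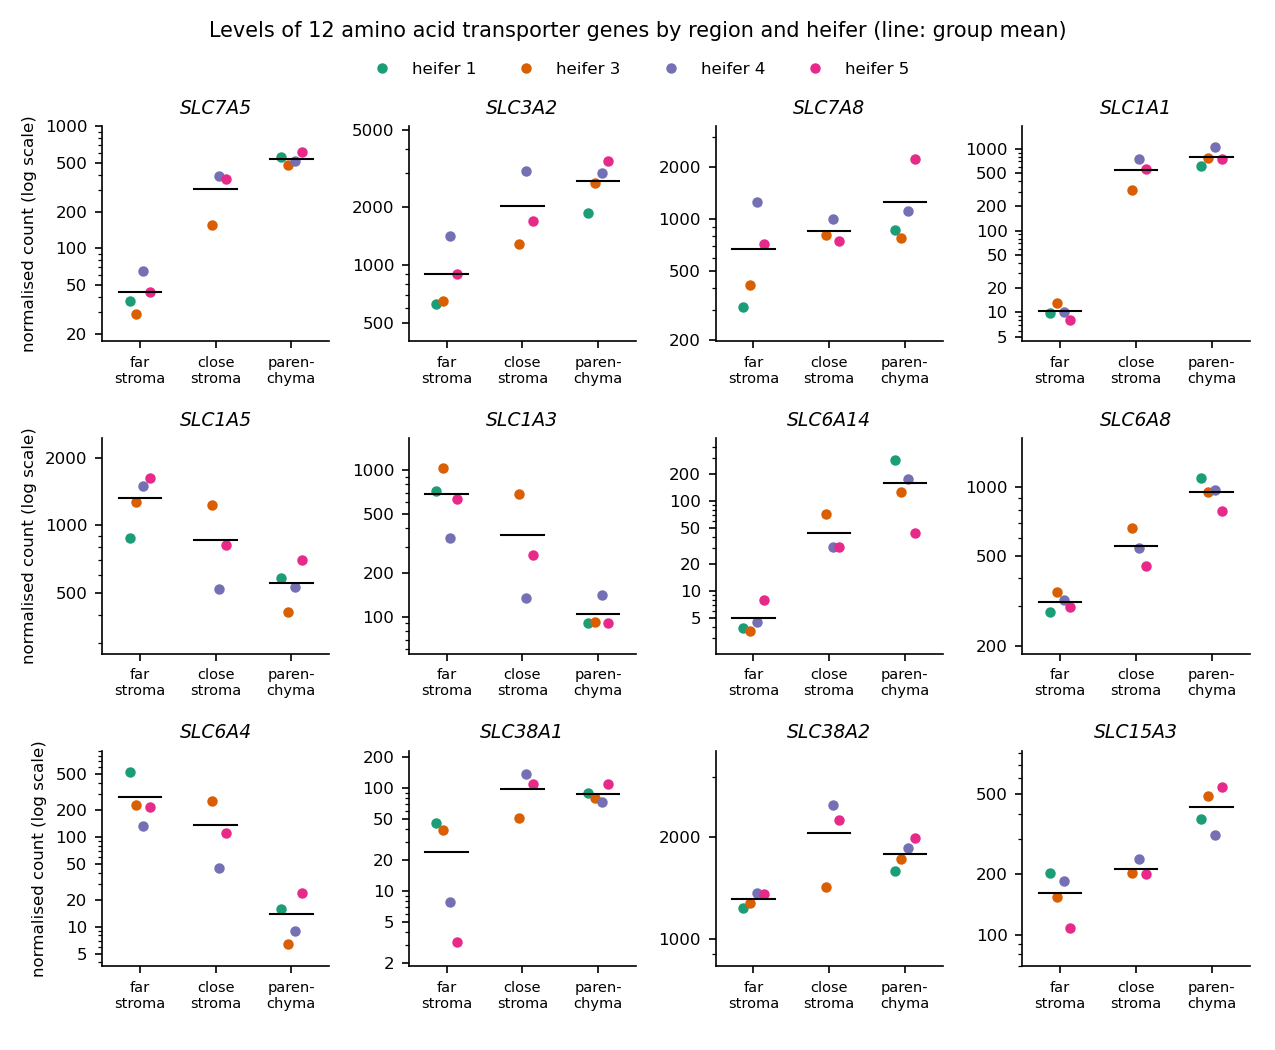
Normalised counts (log scale) of 12 amino acid transporter genes in far stroma, close stroma and parenchyma, with a point for each sample coloured by heifer and a line at the group mean. SLC1A1 lies at 8.06 to 13.2 in far stroma and at 617 to 1063 in parenchyma, while SLC1A5, SLC1A3 and SLC6A4 run from high in far stroma to low in parenchyma.

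Of the 9 tested SLC38 genes, sodium-coupled carriers of neutral amino acids such as glutamine and alanine, 3 were higher and 4 lower in parenchyma. SLC38A1 (SNAT1) was at 89.7, 79.7, 74 and 111 in parenchyma and 50.8, 137 and 109.6 in close stroma. Its far stroma counts were 46, 39.6, 7.9 and 3.23, widely spread between heifers and still below every parenchyma sample (2.43 ± 0.66, adjusted p = 0.00823). SLC38A2 (SNAT2), whose messenger is induced when amino acids are scarce, had 1581, 1723, 1852 and 1978 in parenchyma, 1419.9, 2475 and 2247 in close stroma and 1230.3, 1278, 1366 and 1356 in far stroma. The groups of parenchyma and far stroma did not overlap, but the difference was small (0.44 ± 0.17, adjusted p = 0.0473). It did not pass without the parenchyma of heifer 3, 4 or 5 (adjusted p = 0.0803, 0.101 and 0.109) or the close stroma of heifer 5 (adjusted p = 0.0551) or the far stroma of heifer 1, 3, 4 or 5 (adjusted p = 0.0888, 0.0848, 0.0624 and 0.0709). SLC38A7, which releases glutamine from lysosomes, averaged 277 ± 53.3 and 196 ± 25.5 (0.49, adjusted p = 0.0412, and 0.0571 with the heifer as a block). It was not called without the parenchyma of heifer 3, 4 or 5 (adjusted p = 0.064, 0.0575 and 0.123) or the close stroma of heifer 5 (adjusted p = 0.0559) or the far stroma of heifer 1, 3 or 5 (adjusted p = 0.0512, 0.057 and 0.11).

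The SLC38 genes lower in parenchyma included SLC38A3 and SLC38A5, carriers of the glutamine, histidine and asparagine type called system N. SLC38A3 was at 63.3, 17.1, 28.5 and 27.5 in parenchyma, 85.3, 30.9 and 56.1 in close stroma and 91, 104, 123 and 119 in far stroma, with no overlap of parenchyma and far stroma (-1.80 ± 0.39, adjusted p = 0.002). SLC38A5 averaged 12.2 ± 3.85 and 31 ± 10.9 in those regions (-1.26, adjusted p = 0.0353), a call lost without the parenchyma of heifer 1 or 3 (adjusted p = 0.0939 and 0.0753) or the far stroma of heifer 1, 3 or 4 (adjusted p = 0.061, 0.0944 and 0.0671). SLC38A6 averaged 54 ± 2.56 and 90.4 ± 18.4 (-0.71, adjusted p = 0.0171). SLC38A10 averaged 1748 ± 239 and 2639 ± 362 (-0.59, adjusted p = 0.016), and was not called without the parenchyma of heifer 3 (adjusted p = 0.0502). SLC38A9, which reports lysosomal arginine to mTORC1, was at 117, 128, 126 and 106 in parenchyma, 144, 129 and 122 in close stroma and 173, 131, 105 and 87.1 in far stroma. The groups overlapped and the difference was -0.01 ± 0.22, adjusted p = 0.962. SLC38A4 averaged 16.3 ± 6.64 and 20.8 ± 19 and did not pass (0.28, adjusted p = 0.773). The sign of its difference depended on the method, at -0.38 in edgeR and -0.37 in DESeq2.

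Among the 6 tested SLC6 carriers of amino acids, 1 was higher and 1 lower in parenchyma. SLC6A14 (ATB0,+, ENSBTAG00000000185) takes up neutral and cationic amino acids with sodium and chloride and is known from epithelia of the airway and gut. It was at 287, 126, 176 and 43.9 in parenchyma, 72.9, 30.9 and 30.8 in close stroma and 3.91, 3.6, 4.51 and 8.06 in far stroma. Both other regions lay clear of far stroma, while the parenchyma of heifer 5 fell within the range of close stroma (4.49 ± 0.52, adjusted p = 1.72e-05 for parenchyma against far stroma). SLC6A9 (GLYT1), a glycine carrier, had 89, 104, 67.8 and 86.1 in parenchyma, 159, 103 and 69.7 in close stroma and 98.8, 155, 148 and 247 in far stroma. It was called lower (-0.84 ± 0.31, adjusted p = 0.0374) although the groups overlapped, and not without the parenchyma of heifer 1, 4 or 5 (adjusted p = 0.0624, 0.1 and 0.0674) or the far stroma of heifer 3, 4 or 5 (adjusted p = 0.0649, 0.0581 and 0.112). SLC6A15 and SLC6A17, which carry neutral amino acids in brain, the proline carrier SLC6A20 and SLC6A16, whose substrate is not known, averaged between 12.8 and 79.9 in these 2 regions, and none passed (adjusted p = 0.919, 0.909, 0.226 and 0.324).

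The remaining SLC6 genes encode carriers of amines, GABA, taurine and creatine. Of these, the 3 monoamine carriers were lower in parenchyma. SLC6A4, the serotonin carrier (ENSBTAG00000019349), was at 15.8, 6.5, 8.91 and 23.8 in parenchyma, 253, 45 and 110.5 in close stroma and 522, 227, 132 and 216 in far stroma. The parenchyma lay below every stroma sample, and its log2 difference from far stroma of -4.19 ± 0.55, adjusted p = 5.21e-05 was the largest fall in limma among the members tested. SLC6A2, the noradrenaline carrier, averaged 19.2 ± 5.38 in parenchyma and 152 ± 103 in far stroma (-2.63, adjusted p = 0.00136). SLC6A3, the dopamine carrier, averaged 1.13 ± 1.37 and 11.4 ± 4.6 (-2.72, adjusted p = 0.00428), with 5 reads in all over the parenchyma samples.

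The creatine carrier SLC6A8 (ENSBTAG00000009959) rose, at 1099, 959, 979 and 792 in parenchyma, 665, 542 and 452 in close stroma and 284, 348, 319 and 297 in far stroma. None of the 3 regions overlapped with another, and parenchyma and far stroma differed by 1.61 ± 0.16, adjusted p = 5.01e-06. SLC6A12, a carrier of betaine and GABA, had 13.6, 25.2, 12.5 and 8.24 in parenchyma, 2.88, 0.94 and 6.34 in close stroma and 1 read in the 4 far stroma samples, a pooled ratio of 50.7 (95% counting interval 8.82 to 2031, which covers counting error only). It was called higher (adjusted p = 2.12e-04). The taurine carrier SLC6A6 was at 342, 458, 416 and 387 in parenchyma, 318, 375 and 367 in close stroma and 326, 356, 230.2 and 424 in far stroma (0.29 ± 0.19, adjusted p = 0.223), and the regions overlapped.

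The SLC36 carriers and the SLC15 carriers of peptides and histidine gave 1 gene in each direction. SLC15A3, a lysosomal carrier of histidine and peptides that is known from immune cells, was at 378, 487, 312 and 543 in parenchyma. It had 202, 238 and 199 in close stroma and 202, 154, 184 and 108 in far stroma. The parenchyma lay above both stroma regions, and differed from far stroma by 1.41 ± 0.23, adjusted p = 2.54e-04. Beside it, summed macrophage markers were at 2969, 4079.8, 2851 and 3635 in parenchyma and 7346, 4981, 9029 and 2361 in far stroma, and T cell markers summed to the ranges given above. SLC36A4 fell, at 325, 207, 267 and 279 in parenchyma, 468, 391 and 381 in close stroma and 580.4, 458, 509 and 594 in far stroma. Every parenchyma sample lay below every stroma sample (-0.997 ± 0.17, adjusted p = 3.35e-04). SLC36A1 (PAT1), found in lysosomes and at the cell surface, was at 50.5, 82.9, 31.2 and 46.7 in parenchyma, at 71, 51.6 and 50.7 in close stroma and at 105, 112, 37.2 and 29 in far stroma. These regions overlapped (-0.26 ± 0.44, adjusted p = 0.651). SLC15A4, a relative of SLC15A3 in the same compartment, did not pass (0.03, adjusted p = 0.87), nor did the gut peptide carrier SLC15A1 (0.83, adjusted p = 0.368).

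The sodium-independent uniporters let amino acids leave or enter along their gradient. SLC43A2 (LAT4) was at 239.8, 271, 191 and 371 in parenchyma, 428, 287 and 283 in close stroma and 373, 558, 449 and 392 in far stroma. It was lower in parenchyma with no overlap, by a narrow margin (-0.75 ± 0.22, adjusted p = 0.0146), and not called without the parenchyma of heifer 4 (adjusted p = 0.0504). SLC43A1 (LAT3) had 566, 529, 527 and 476 in parenchyma, 279.9, 405 and 339 in close stroma and 366, 356, 1069.9 and 709.6 in far stroma. Its far stroma ran from within the close stroma range to above every parenchyma sample and the difference of parenchyma and far stroma did not pass (-0.10 ± 0.30, adjusted p = 0.807). Parenchyma lay above close stroma, but this difference did not pass in the main limma fit (0.63, adjusted p = 0.26). Nor did it pass with the heifer as a block (0.144), in edgeR (0.292) or in DESeq2 (0.247). It passed only when these 2 groups were fitted alone (0.63, adjusted p = 0.0395). SLC43A3, which carries purine bases and not amino acids, did not pass (-0.03, adjusted p = 0.933). SLC16A10 (TAT1), a uniporter of aromatic amino acids, was barely detected. It had 4.52, 4.88, 0.89 and 2.75 in parenchyma, 6.71, 1.88 and 6.34 in close stroma and 5.87, 4.8, 1.13 and 0 in far stroma, and was not tested.

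In all, 6 members stayed below the filter of a mean of 10 in at least 1 region, namely SLC16A10, SLC38A8, SLC38A11, SLC6A7, SLC7A3 and SLC7A9. SLC6A7, the proline carrier of brain, was at 0 in all 4 parenchyma samples, at 0, 0.94 and 2.72 in close stroma and at 2.94, 3.6, 6.77 and 8.06 in far stroma. SLC7A9, the light chain that pairs with SLC3A1, ran from 0 to 8.24, SLC38A11 from 0 to 16.9, SLC38A8 from 0 to 5.49 and SLC7A3 from 0 to 4.52. No test was made at these counts.

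Close stroma lay between the outer regions for most members. Its mean fell between those of parenchyma and far stroma for 35 of the 47 tested genes. It did so for 25 of the 28 that differed between those 2 regions. The share of all genes with such a mean was not taken, so whether this is particular to the members was not tested. The 28 were called for a gap between the outer regions, which leaves little room for a close stroma mean outside it. Against far stroma, 8 members were higher in close stroma, beside 11% of all genes called higher. These 8 of 47 stood beside 17% of all genes called either way. By limma, edgeR and DESeq2, 0 were lower, beside 5.99%, 4.13% and 8.8% of all genes (6, 3 and 6 members lower at an unadjusted p under 0.05). The 8 were SLC1A1 (5.52, adjusted p = 9.70e-08), SLC7A5 (2.73, adjusted p = 9.58e-05), SLC6A14 (2.86, adjusted p = 0.00363), SLC6A8 (0.81, adjusted p = 0.00633), SLC7A4 (1.16, adjusted p = 0.0145), SLC38A1 (2.497, adjusted p = 0.0308), SLC3A2 (1.15, adjusted p = 0.0349) and SLC38A2 (0.61, adjusted p = 0.042). Each of these was also called higher in parenchyma than in far stroma, a comparison that shares the far stroma samples. For SLC38A1 the close stroma of heifer 4, and for SLC38A2 that of heifers 4 and 5, lay above every parenchyma sample. The call of SLC7A4 was lost without the close stroma of heifer 5 (adjusted p = 0.078). That of SLC38A1 was lost without the close stroma of heifer 4 or 5 (adjusted p = 0.145 and 0.111) or the far stroma of heifer 4 or 5 (adjusted p = 0.0761 and 0.0543). SLC3A2 was not called without the close stroma of heifer 4 or 5 (adjusted p = 0.198 and 0.0814) or the far stroma of heifer 1, 3 or 5 (adjusted p = 0.0634, 0.0742 and 0.0623). SLC38A2 kept its call without the close stroma of heifer 3 and lost it without any other single sample (adjusted p = 0.0501 to 0.22). The count was 5 without the close stroma of heifer 4 (6.97% of all genes), 4 without that of heifer 5 (7.41%) and 5 without the far stroma of heifer 5 (9.37%). Without the close stroma of heifer 3, which had the most adipocyte markers of its region, 5 members were called lower than in far stroma, beside 11.6% of all genes. These were SLC1A3 (adjusted p = 0.00804), SLC1A5 (0.0274), SLC38A10 (0.0158), SLC38A3 (0.0445) and SLC38A5 (0.0405).

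Parenchyma and close stroma differed in 3 members, beside 7.12% of all genes. SLC6A8 (0.80 ± 0.17, adjusted p = 0.0151) and SLC15A3 (0.98 ± 0.25, adjusted p = 0.0317) were higher in parenchyma, where 2.02% of all genes were. SLC6A4 (-3.04 ± 0.60, adjusted p = 0.00919) was lower, where 5.1% were. Each was higher or lower in 3 of 3 heifers, and the groups did not overlap. The SLC6A4 call was lost without the close stroma of heifer 3 (adjusted p = 0.0562), and the SLC6A8 call without the close stroma of heifer 5 (adjusted p = 0.0734). SLC15A3 was not called with the heifer as a block (0.0583) or without the parenchyma of heifer 1, 3 or 5 (adjusted p = 0.0515, 0.0934 and 0.0809) or the close stroma of heifer 3 or 5 (adjusted p = 0.123 and 0.101). The heifer block called SLC7A5 higher (adjusted p = 0.0396, 0.11 without the block) and SLC6A2 (0.0128) and SLC36A4 (0.0391) lower, which gave 2 higher and 3 lower, beside 3.4% and 6.53% of all genes. edgeR called 3 higher and 3 lower, beside 2.21% and 6.02%, and DESeq2 called 4 and 5, beside 5.79% and 8.33%. Without the close stroma of heifer 4 the members split into 2 higher and 3 lower, beside 2.33% and 6.23%.

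**Figure D3:**
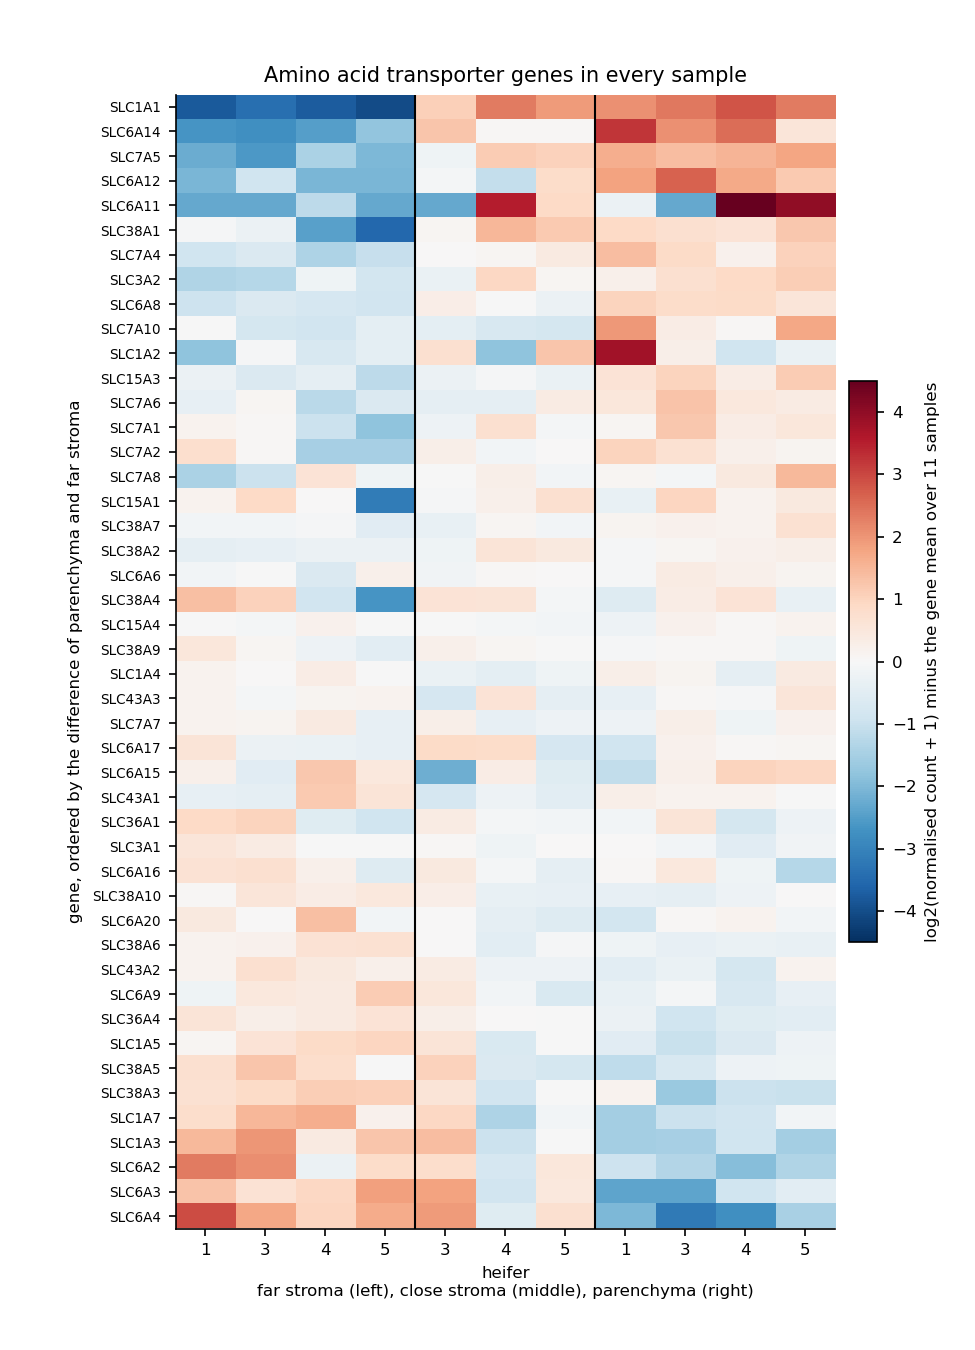
Log2(normalised count + 1) minus the mean of the gene over the 11 samples, for 46 of the 47 tested amino acid transporter genes (rows, ordered by the difference of parenchyma and far stroma) in each sample (columns, by region and heifer). Red marks a value above the mean of the gene and blue one below it. The close stroma samples differ among themselves, as for SLC1A3 at 687 in heifer 3 and at 134 and 264 in heifers 4 and 5.

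Because SLC7A5 and SLC3A2 work as a pair, and because SLC1A5 is held to supply the glutamine that SLC7A5 exports, the ratios of 4 pairs of genes were taken within each sample, where the library scaling nearly cancels. The pairs were chosen after the values had been seen, and the ratios are given with no test. Each difference of a ratio between regions follows from the log2 differences of its 2 genes and is no further result. The ratio of SLC7A5 to SLC3A2 was 0.2999, 0.179, 0.174 and 0.178 in parenchyma, 0.122, 0.129 and 0.217 in close stroma and 0.0609, 0.0454, 0.0469 and 0.0495 in far stroma. The ratio was higher in parenchyma than in far stroma by 2.01 on the log2 scale, with no overlap. The ratio of SLC1A5 to SLC7A5 was 1.05, 0.862, 1.02 and 1.14 in parenchyma, 7.89, 1.32 and 2.23 in close stroma and 23.1, 42.8, 22.5 and 36.6 in far stroma. It was the most even of the 4 within parenchyma and the farthest apart between regions (-4.89 on the log2 scale). For SLC7A5 over SLC7A8 the ratios were 0.64, 0.615, 0.465 and 0.273 in parenchyma and 0.123, 0.0712, 0.0527 and 0.0621 in far stroma (2.69 on the log2 scale), again with no overlap. Those of SLC7A8 over SLC3A2 were 0.469, 0.292, 0.373 and 0.652 in parenchyma and 0.495, 0.638, 0.89 and 0.796 in far stroma, and overlapped.

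**Figure D4:**
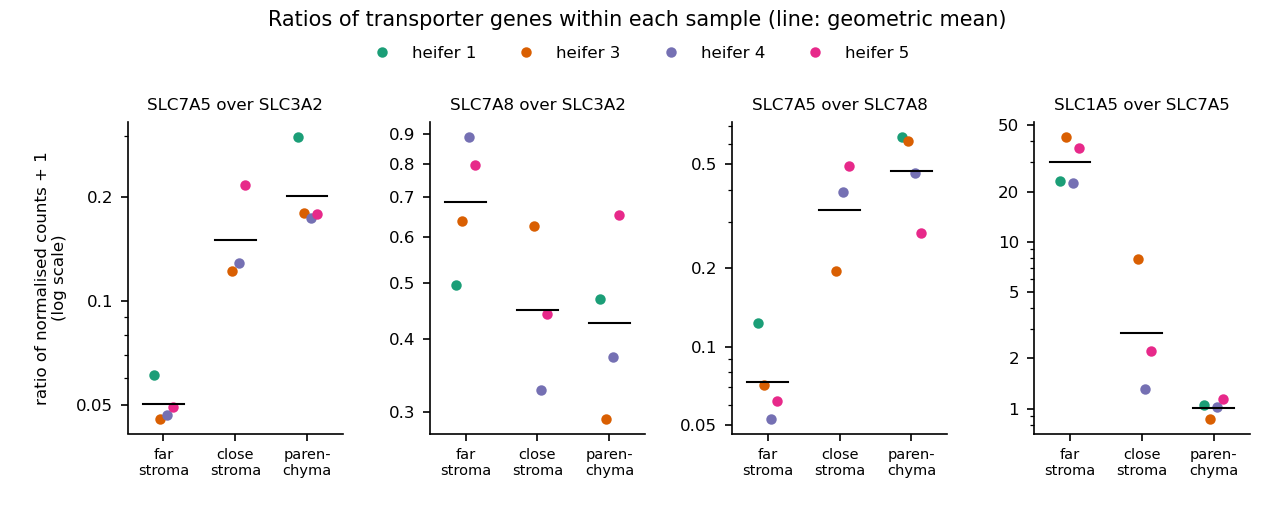
Ratio of 2 transporter genes within each sample, as normalised counts + 1 on a log scale, in far stroma, close stroma and parenchyma, with a point for each sample coloured by heifer and a line at the geometric mean. SLC1A5 over SLC7A5 runs from 22.5 to 42.8 in far stroma and from 0.862 to 1.14 in parenchyma.

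SLC6A11 and SLC1A2 varied widely between heifers within a region. SLC6A11, a GABA carrier, was at 3.02, 0, 108 and 76 in parenchyma, 0, 55.3 and 8.15 in close stroma and 0, 0, 1.13 and 0 in far stroma. It was at 0 in all 3 regions of heifer 3, low in both regions of heifer 1, and highest in the parenchyma of heifers 4 and 5. Far stroma held 1 read of it in all, and the pooled ratio of parenchyma to far stroma was 147 (95% counting interval 26 to 5816). The test over heifers did not pass without a block (adjusted p = 0.0645) and passed with it (0.0119), in edgeR (0.0157) and without the parenchyma of heifer 3 (adjusted p = 0.0131) or the close stroma of heifer 3 or 4 (adjusted p = 0.0436 and 0.04997). SLC1A2, the main glutamate carrier of astrocytes, was at 46.8, 3.25, 0.89 and 1.83 in parenchyma, 4.79, 0 and 7.25 in close stroma and 0, 2.4, 1.13 and 1.61 in far stroma. The parenchyma of heifer 1 stood alone, and the difference did not pass in limma (1.46, adjusted p = 0.24). DESeq2 called SLC1A2 higher in parenchyma (3.41, adjusted p = 0.0329). Summed milk protein markers were at 274144, 21068, 8792 and 2607 in the parenchyma samples and 19030.1, 4609.9 and 105704 in close stroma, and the parenchyma of heifer 1 and the close stroma of heifer 5 were highest for both these markers and SLC1A2 in their regions. In far stroma the markers were at 676, 57.6, 111 and 232, and heifer 1, the highest for them, had SLC1A2 at 0. Whether the milk protein level has a part in SLC1A2 was not tested.

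A few members are neighbours in the genome. In the gene order of the RefSeq assembly ARS-UCD2.0, a later build than that of the files, SLC38A1, SLC38A2 and SLC38A4 stand close together, with SLC38A2 next to SLC38A4 and to SLC38A1. In parenchyma against far stroma they differed in limma by 2.43 ± 0.66, 0.44 ± 0.17 and 0.28 ± 0.73. SLC38A1 and SLC38A2 were called higher and SLC38A4, whose sign depended on the method, was not. SLC43A1 and SLC43A3 stand with 1 gene between them, and neither passed.

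The genes that use the transported amino acids were read from 7 lists, by their counts and medians beside a median of 0.06 over all genes, for parenchyma against far stroma. The counts stand beside 26.1% of all genes called higher and 24% lower. With library-total scaling these shares were 43.3% and 14.4%, and with the heifer block 28.1% and 25.3%. Genes that break down leucine, isoleucine and valine were lower in parenchyma for 20 of 24 tested and higher for 0, with 4 not called (median log2 -1.18, 15 lower and 2 higher with library-total scaling). The mitochondrial aminotransferase BCAT2, which takes the first step, was among them (-2.28 ± 0.34). The 3 with the smallest p were ECHS1 (903 ± 51.9 against 7505 ± 1434, log2 difference -3.03 ± 0.32), ACAT1 (623 ± 126 against 3064 ± 1025, log2 difference -2.27 ± 0.29) and PCCB (354 ± 69.4 against 1379 ± 184, log2 difference -1.97 ± 0.25), which act in the mitochondrial steps after the branched-chain ketoacids. Adipocyte markers differed between these regions as given above, and their part in this was not tested.

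Genes of glutamine, glutamate, proline and alanine metabolism were lower for 7 of 19 and higher for 1 (median -0.09, 6 lower and 6 higher with library-total scaling). GFPT2, an enzyme of hexosamine synthesis, was at 130.3 ± 40.1 against 1402 ± 511, log2 difference -3.40 ± 0.32. Glutamine synthetase (GLUL) was at 2125 ± 336 against 6231 ± 1005, log2 difference -1.55 ± 0.20, and PRODH, which starts proline breakdown, at 46.2 ± 9.81 against 591 ± 264, log2 difference -3.50 ± 0.48. CAD, which starts pyrimidine synthesis from glutamine, was the gene called higher (0.83 ± 0.18). Genes of arginine, ornithine and polyamine metabolism were lower for 6 of 15 and higher for 0 in limma (median -0.18, 4 lower and 5 higher with library-total scaling, 6 and 2 with the heifer block). The endothelial nitric oxide synthase NOS3 was at 187 ± 32.9 against 1014 ± 410.4, log2 difference -2.36 ± 0.32, beside the lower blood endothelial markers given above. The creatine kinase CKB was at 621 ± 104 against 5153 ± 2908, log2 difference -2.86 ± 0.45 and the citrulline-using ASS1 at 174 ± 20.5 against 804 ± 451, log2 difference -2.01 ± 0.38.

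The list of cysteine and glutathione synthesis also holds genes of glutathione breakdown and use. Of its 14 tested genes, 7 were higher in parenchyma and 3 lower (median 0.56), which does not show a rise of synthesis. GGT1, a gamma-glutamyl transferase that breaks down glutathione outside the cell, and its relatives GGT6 and GGT7 were among the higher ones. GGT1 was at 934 ± 158 against 10.3 ± 5.44, log2 difference 6.53 ± 0.40 and GGT7 at 103 ± 21.4 against 11.5 ± 3.44, log2 difference 3.06 ± 0.30. GGT6 held 975 reads in parenchyma and 1 in far stroma, a pooled ratio of 687 (95% counting interval 123 to 27161). Their relative GGT5 ran from 335 to 663 in parenchyma and from 57.6 to 79.2 in far stroma. The catalytic subunit of glutamate-cysteine ligase, GCLC, was higher (1.22 ± 0.20) and its modifier subunit GCLM lower (-1.14 ± 0.27). Glutathione synthetase (GSS) overlapped, at 207 to 415 in parenchyma and 177 to 445 in far stroma. Of 19 tested genes of the amino acid response, most of them targets of the factor ATF4, 6 rose and 7 fell (median -0.41). The medians of both lists depend on the scaling, since library-total scaling moved the median of all genes up by 0.42. PSAT1 (295 ± 65.4 against 46.4 ± 6.92, log2 difference 2.63 ± 0.21) and PHGDH (422 ± 119 against 125 ± 25.4, log2 difference 1.72 ± 0.25), enzymes of serine synthesis, were higher, and PSPH, which acts last in that path, was lower (-2.10 ± 0.42). The transcription factor ATF5 was lower (1325 ± 282 against 11229 ± 3269.6, log2 difference -3.05 ± 0.37), and ATF4 did not pass (-0.40 ± 0.19).

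Of 26 tested genes that sense amino acids for mTORC1, 4 rose and 9 fell (median -0.13, 9 higher and 4 lower with library-total scaling). Over all genes, 26.1% were called higher and 24% lower, and 43.3% and 14.4% with library-total scaling, so all genes shifted upward under it. The arginine sensor CASTOR1 was lower (329 ± 25.8 against 912 ± 283, log2 difference -1.42 ± 0.23), as were SESN1 (-0.91 ± 0.14) and the lysosomal anchor subunit LAMTOR2 (-0.95 ± 0.20). The leucine sensor SESN2, on the list of the amino acid response, was higher (1.503 ± 0.23), and so was the small GTPase RRAGD (1.19 ± 0.27). Aminoacyl-tRNA synthetases, which load amino acids for translation, rose in 4 and fell in 2 of 18 cases (median 0.01, 10 and 1 with library-total scaling). The 3 with the smallest p were AARS1 (-0.82 ± 0.19), HARS1 (-0.60 ± 0.14) and FARSA (0.79 ± 0.20). LARS1, which loads leucine, was at 423 ± 64.4 against 421 ± 15.6, log2 difference -0.01 ± 0.14, and did not pass.

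**Figure D5:**
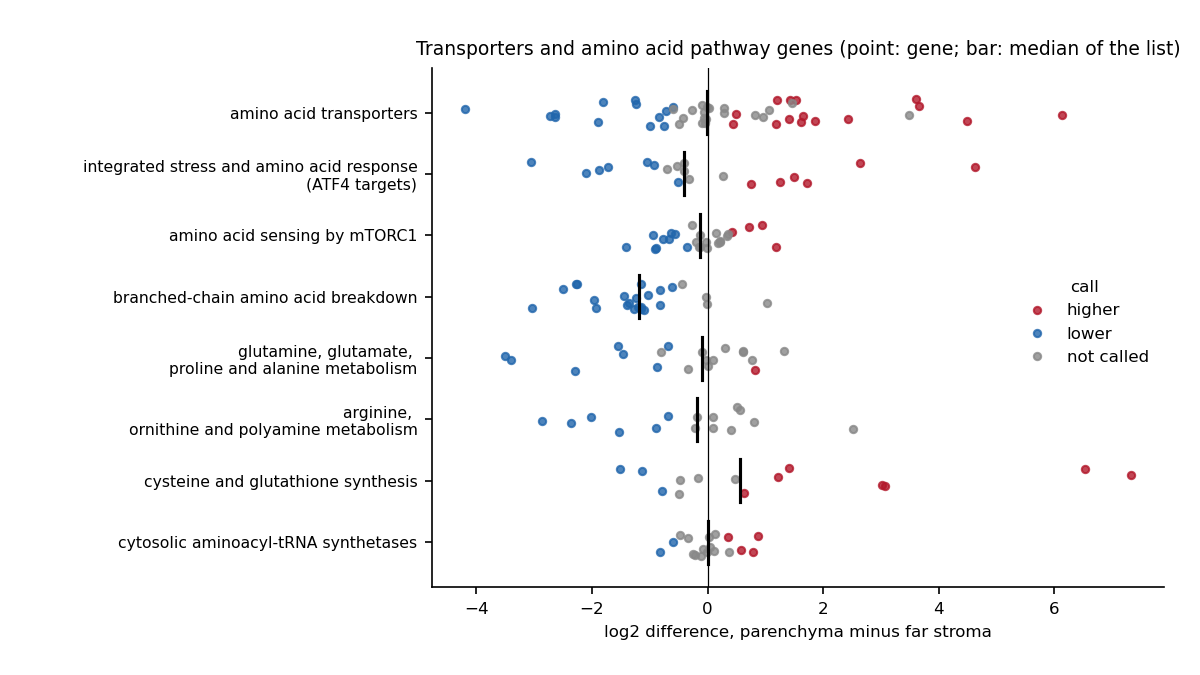
Log2 difference of parenchyma minus far stroma for the 47 tested amino acid transporter genes and the tested genes of 7 amino acid pathway lists, with a point for each gene coloured by its limma call and a bar at the median of the list. The transporters spread to both sides around a median of -0.01, while the genes of branched-chain amino acid breakdown lie mostly to the left with a median of -1.18.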

How the data were processed

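Poly A selected RNA of 11 mammary samples from 4 heifers was sequenced. Per the labels' protocols, total RNA from tissue kept in a preserving solution was fragmented and made into barcoded libraries. Per the submitters' processing notes, the tools were DESeq2, HTSeq, STAR and cutadapt, and the genome was ARS-UCD1.2. Whether counting used strand was not given, so reads of overlapping, antisense or near-identical genes may be shared. For each gene and sample the deposited values are a signal, headed by the authors as normalised counts. Divided by what 1 read is worth, 100% came out whole to within 0.01, which recovered the reads (7274474 to 11156909 per sample). The name of 1 column ends in a letter that no label explains, and its values were read as heifer 4 close stroma. A second deposited sheet lists the authors' thresholds, which were not applied.

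The test was made on log2(value + 1) with limma 3.58.1 in R 4.3.3, with a variance trend, in 1 fit of 3 groups, over the 14596 genes with a highest group mean of at least 10, and adjusted by the Benjamini-Hochberg method over all of them. Fold changes of low genes on this scale can lie below or above those of the count models. For parenchyma against far stroma, SLC6A12 differed by 3.60 in limma and 5.17 in edgeR, and SLC38A1 by 2.43 and 1.83. The code was tested on simulated data. Alternatives were other pseudocounts and filters, library-total scaling, edgeR 4.0.16 and DESeq2 1.42.0 on the recovered reads, fewer samples and the heifer as a block. Samples were paired by heifer number, which is the animal in the labels. In 10 same-heifer pairs, deviations from the group mean correlated at 0.117 to 0.383. In pairs of different heifers they correlated at -0.349 to 0.224, so the ranges overlapped. Members, lists and tests were chosen with earlier results of these data known. Values per sample were given for 20 fixed members where measured and the 2 of each role with the smallest p, and 3 genes per pathway list. Other named genes were chosen after their values were seen, and 1 tested member is counted but not reported here by itself. Of 141 list genes, 118 matched by symbol, 17 through RefSeq names and 6 not at all.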

Additional observations from a re-analysis of the deposited data

Results flagged for a closer look

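Dixon's test for a single distant value was run on the 4 parenchyma and the 4 far stroma samples of each tested member. In 94 groups, 10 values passed the 95% limit. That limit lets through about 1 in 20 groups of normally distributed values, but the normalised counts were used here without a log. The share over all genes was not taken, so whether 10 is more than chance gives was not tested. In parenchyma, SLC1A2 was at 46.8 in heifer 1 against 0.89 to 3.25 in the others. SLC1A3 was at 141 in heifer 4 (others 90.5 to 92.7), SLC38A7 at 356 in heifer 5 (243 to 256), SLC6A17 at 12.8 in heifer 1 (25.9 to 28.5) and SLC7A6 at 147 in heifer 3 (77.8 to 84.5). In far stroma, SLC38A7 was at 158 in heifer 5 (205 to 214), so that heifer 5 stood apart for this lysosomal glutamine carrier in both regions, in opposite directions. SLC6A17 was at 38.2 in the far stroma of heifer 1 (19.4 to 20.4) and SLC43A3 at 96 in that of heifer 3 (111 to 114). SLC6A11 at 1.13 in heifer 4 and SLC6A12 at 1.2 in heifer 3 are single reads beside 0 in the other far stroma samples, where any read passes.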

How the results depend on the processing

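Of 39 gene calls over the 3 comparisons, 37 were kept with the heifer as a replicate block, 34 with library-total scaling, 24 whichever sample was left out and 22 under every alternative run, and no called difference reversed. For parenchyma against far stroma, 15 members higher and 13 lower became 17 and 13 with the replicate block, 16 and 13 in edgeR and 17 and 13 in DESeq2. The lower count fell to 8 with library-total scaling. Leaving out 1 sample gave 11 to 16 higher and 11 to 13 lower. For parenchyma against close stroma, 2 higher and 1 lower became 4 and 5 in DESeq2. The lower count was 3 with the replicate block, 3 in edgeR with TMM, 2 in edgeR with RLE and 2 with the 2 groups alone, which gave 3 higher. Leaving out 1 sample gave 0 to 2 higher and 0 to 3 lower. For close stroma against far stroma, 8 higher became 5 with the 2 groups alone and 4 to 8 when 1 sample was left out, and 0 lower became 0 to 5. For the 2 groups alone, edgeR with RLE and most fits without 1 sample, the share of all genes called was not set beside these counts. Where it was given above for close stroma against far stroma, the share of all genes called higher also fell when a sample was left out. Whether the shifts are particular to the members, and their cause, was not tested. Members with few reads limit what can be seen, since 1 read was worth 0.754 to 1.61 normalised counts.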

Other observations

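Within far stroma, several members separated heifers 1 and 3 from heifers 4 and 5, as seen after the values were known. With so few samples on each side, such a split readily arises by chance, and the share of all genes that split so was not taken. The members named here are examples, and SLC1A5, SLC38A3, SLC6A2 and SLC6A4, among others, separated these heifers too. In the order of heifers 1, 3, 4 and 5, the arginine carrier SLC7A1 was at 136, 125, 60.9 and 33.9, SLC7A2 at 57.8, 34.8, 11.3 and 11.3, SLC36A1 at 105, 112, 37.2 and 29 and SLC38A4 at 41.1, 32.4, 7.9 and 1.61. SLC38A1 and SLC38A9 were also lower in heifers 4 and 5 than in heifers 1 and 3. The leucine and neutral amino acid carriers SLC43A1 and SLC7A8 and the heavy chain SLC3A2 were higher in heifers 4 and 5 than in heifers 1 and 3. In the same samples, summed T cell markers were at 550.0, 319, 196 and 185 and summed adipocyte markers at 176758, 183560.0, 238058 and 261489. Summed fibroblast markers were at 380384, 460266, 315100.0 and 206550.0 and blood endothelial markers at 21317, 24237, 31082 and 31203, and 672, 798, 903 and 1128 genes were at 0. In parenchyma SLC7A2 (67.9, 55.3, 40.1 and 36.6), SLC36A1, SLC3A2 and SLC7A8 separated the same heifers in the same direction. SLC7A1, SLC38A1, SLC38A4 and SLC38A9 did not, and SLC43A1 was lower, not higher, in heifers 4 and 5. No test was made of this pattern.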
